A study of Homo sapiens with 12 samples.

Results

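The respiratory chain and the ATP synthase are built from genes of both genomes of the cell, and this account follows those genes in RNA-seq of A375, an established human melanoma cell line with the genotype label WT. Members were chosen by gene name. Names beginning MT-ND, MT-CO, MT-CYB or MT-ATP gave the protein genes of the mitochondrial genome. Names beginning NDUFA, NDUFB, NDUFC, NDUFS, NDUFV, UQCR, COX4 to COX8 or ATP5, together with SDHA to SDHD, gave the nuclear genes, and the NDUFAF and SDHAF assembly factors were left out. Of 20263 genes in the deposited table, 104 were members, 13 mitochondrial and 91 nuclear. All 13 mitochondrial and 83 nuclear members had enough reads to be tested.

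Cells were in 4 groups of 3 libraries each. Ctrl had neither agent, DBIC had the compound of that name, Hemin had hemin alone, and DBIC+Hemin had both. DBIC, spelled DdBIC in the study, is a dodecyl ester of a benzimidazole carboxylic acid that the study describes as a pyroptosis inducer acting through the nuclear receptor Nur77, and hemin is the oxidised, chloride-bound form of heme. The stated purpose of the 4 groups was the mechanism of DBIC-induced pyroptosis, which hemin inhibited. The dose and time of the sequenced cultures are not given in the sources used here, and the labels do not say whether replicates were separate cultures, so the p-values measure the spread between these libraries, which may be technical.

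Electrons enter the chain at complex I, which oxidises NADH, and at complex II, which is succinate dehydrogenase, and pass through ubiquinone to complex III, through cytochrome c to complex IV, and then to oxygen. Complexes I, III and IV pump protons, and complex V, the ATP synthase, uses the gradient to make ATP. Complex II is encoded wholly in the nucleus, while the other complexes join nuclear subunits to a hydrophobic core translated inside the mitochondrion. Heme is a cofactor of complex II, where SDHC and SDHD hold it, of cytochrome b (MT-CYB) in complex III, and of MT-CO1 in complex IV.

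Each library held 37951275 to 44358912 counts, and replicate libraries correlated at 0.985 to 0.988 in log2 CPM across genes, where CPM is the count of a gene scaled to the size of its library. The melanocyte lineage gene SOX10 was at 548 to 770 CPM and CSPG4 at 579 to 744 CPM, while the pigment genes PMEL, MLANA, TYR and DCT reached at most 1.11 CPM and the leukocyte gene PTPRC had no count. Of 8 markers of other cell types, CD68 at 20.2 to 29.7 CPM and KRT14 at 2.62 to 3.92 CPM were above 1 CPM. Among the libraries, DBIC replicate 2 stood apart in mitochondrial reads. The 13 mitochondrial genes took 2.99% of its counts, against 2.50% and 2.43% in DBIC replicates 1 and 3. They took 3.43% in DBIC+Hemin replicate 3, against 3.08% and 3.14% in replicates 1 and 2 of that group.

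Reads of neighbouring genes can be shared, and 2 places in the mitochondrial genome matter for the values that follow. They are shown because MT-ATP8 and MT-ATP6 overlap, and because MT-ND5 and MT-ND6, the members that fell furthest among the mitochondrial genes, end against each other on opposite strands. The sequences are those of GENCODE 29 transcripts on GRCh38, 5′ to 3′. MT-ATP8, MT:8366-8572 on the + strand, is printed whole, with the 46 bases (22.2% of its length) that also belong to MT-ATP6 in capitals. Of MT-ND5, MT:12337-14148 on the + strand, and MT-ND6, MT:14149-14673 on the - strand, the last 60 bases are printed with the stop codon in capitals.
MT-ATP8: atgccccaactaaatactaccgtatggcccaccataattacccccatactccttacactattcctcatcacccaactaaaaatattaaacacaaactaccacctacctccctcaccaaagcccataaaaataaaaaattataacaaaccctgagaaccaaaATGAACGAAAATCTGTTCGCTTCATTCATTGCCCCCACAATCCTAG
MT-ND5 end: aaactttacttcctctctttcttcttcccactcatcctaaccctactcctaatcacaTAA
MT-ND6 end: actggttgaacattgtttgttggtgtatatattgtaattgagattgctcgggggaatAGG

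MT-ND6 is the only one of the 13 whose coding sequence is read from the other strand. The MT-ND4L and MT-ND4 genes also overlap, by 7 bases. Whether counting used strand is not given in the sources used here, so the reads of MT-ATP8 in the overlap and reads antisense to MT-ND6 cannot be assigned with certainty.

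With DBIC, genes of both genomes were lower and none of the tested members was called higher when all 12 libraries were used. In DBIC against Ctrl, 6 of 13 mitochondrial genes (46.2%) and 32 of 83 nuclear genes (38.6%) fell, by edgeR's quasi-likelihood test at a Benjamini-Hochberg adjusted p under 0.05. Of all 14287 genes tested, 37.2% were called in this comparison, 20% higher and 17.2% lower. The share of members called was therefore near that of all genes, and the members differed from the whole in direction, since 0 of 96 were called higher. With upper-quartile in place of TMM factors 43 nuclear and 7 mitochondrial members were lower and again none higher, while the higher share of all calls went from 53.8% to 40%. The median log2 fold change was -0.16 over the mitochondrial genes, -0.12 over the nuclear ones and -0.01 over all genes. The mitochondrial median was -0.28 without DBIC replicate 2 and -0.10 without DBIC replicate 3, so it lay on either side of the nuclear median, which stayed between -0.13 and -0.11 when any 1 library was left out. The falls were small apart from a few genes, and those of the called nuclear members ran from -0.10 to -0.77 on the log2 scale with a median of -0.19.

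**Figure D1:**
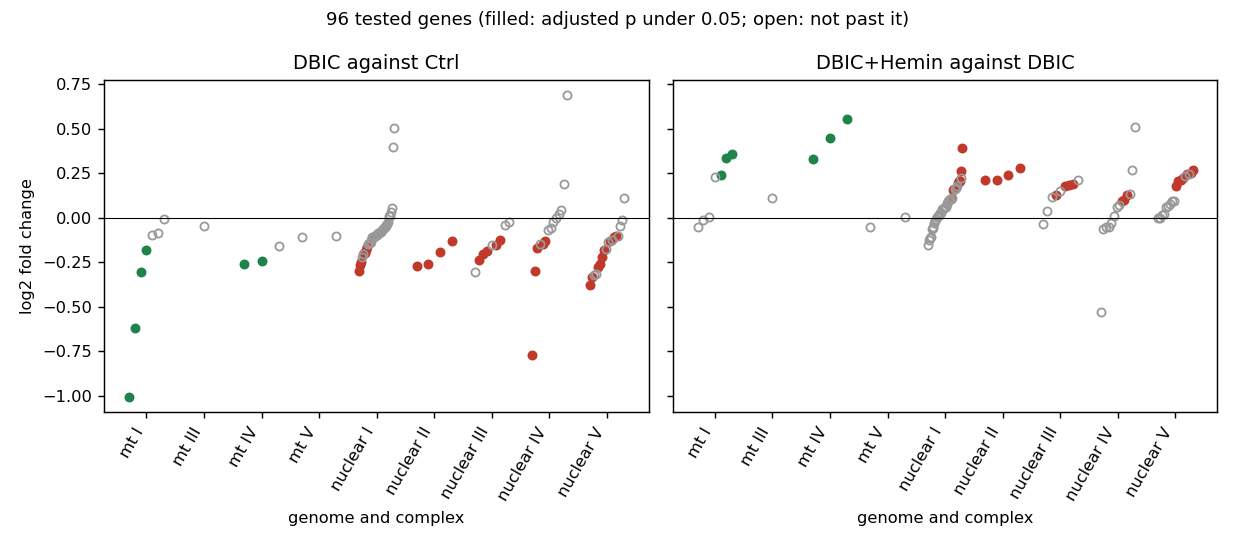
Log2 fold change (vertical axis) of the 96 tested genes by genome and complex (horizontal axis), for DBIC against Ctrl on the left and DBIC+Hemin against DBIC on the right. Each point is a gene, filled where the adjusted p was under 0.05 (green mitochondrial, red nuclear). All filled points lie below 0 on the left and above 0 on the right, and MT-ND6 is the lowest at -1.01.

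Complex II was the complex in which each tested gene was called. All 4 were lower with DBIC, where 37.2% of all genes were called and 17.2% were lower. SDHA, the flavoprotein that oxidises succinate (chr5:218241-256700, + strand, hg38 coordinates as in the deposited table), was at 156, 165.5 and 159 CPM in Ctrl, 146, 147 and 145 in DBIC, 165, 152 and 160 in Hemin, and 168, 170 and 168 in DBIC+Hemin. The DBIC libraries were below all others and the DBIC+Hemin libraries above all others. In DBIC+Hemin against Hemin, SDHA gave a log2 fold change of 0.085 (adjusted p 0.16, edgeR) and was not called. SDHB, the iron-sulfur subunit (chr1:17018722-17054170, - strand), was at 170.5, 177 and 176.5 CPM in Ctrl, 155, 158.5 and 145 in DBIC, 171, 176 and 177 in Hemin, and 182, 182.5 and 177 in DBIC+Hemin. Its 3 DBIC values were again the lowest of the 12.

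The membrane anchors, which hold the heme, were lower as well. SDHC (chr1:161314257-161375340, + strand) was at 96.3, 91.7 and 99.2 CPM in Ctrl, 77.3, 77.2 and 83.1 in DBIC, 93.8, 95.7 and 101 in Hemin, and 98.5, 93.0 and 96.3 in DBIC+Hemin. SDHD (chr11:112086773-112120013, + strand) was at 31.4, 32.0 and 33.1 CPM in Ctrl, 25.8, 26.4 and 28.3 in DBIC, 29.8, 30.0 and 30.1 in Hemin, and 34.6, 30.4 and 28.6 in DBIC+Hemin. For both anchors the DBIC libraries lay below every library of the other groups, and for SDHD the nearest pair was DBIC replicate 3 at 28.3 and DBIC+Hemin replicate 3 at 28.6. How often groups were separated in this way among all genes was not counted, here or for the members below.

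In DBIC against Ctrl the log2 fold change was -0.13 ± 0.03 (SE, n = 3 libraries per group) for SDHA, -0.19 ± 0.03 for SDHB, -0.27 ± 0.04 for SDHC and -0.26 ± 0.07 for SDHD, with adjusted p of 0.0077, 0.0012, 0.00057 and 0.0099 by edgeR's quasi-likelihood test. In DBIC+Hemin against DBIC all 4 were higher, by 0.21 ± 0.03, 0.24 ± 0.03, 0.28 ± 0.04 and 0.21 ± 0.07 in the same order, with adjusted p of 0.00058, 0.00032, 0.00067 and 0.030 by the same edgeR test. Of all genes, 13.5% were higher in that contrast. The SDHD call in this contrast was lost in 5 of 20 alternative analyses. Among them were the fit with replicate number as a block and the fit of only the groups compared. The call was also lost without DBIC replicate 1, DBIC replicate 2 or DBIC+Hemin replicate 1. These contrasts share the DBIC libraries. A second identifier that the table also names SDHD held 1 to 6 counts per library and was not tested.

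**Figure D2:**
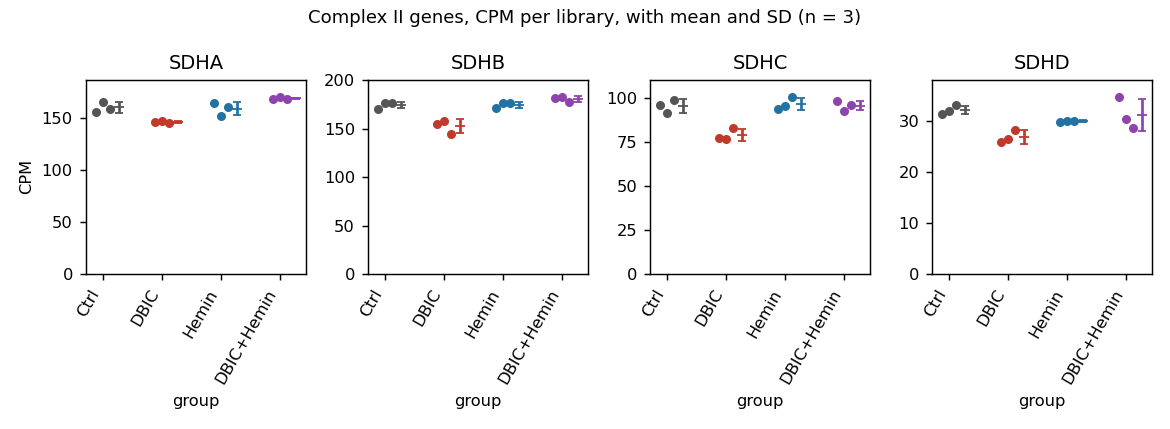
CPM (vertical axis, from 0) of the complex II genes SDHA, SDHB, SDHC and SDHD in each library by group (horizontal axis), with the group mean and SD (n = 3) beside the points. The 3 DBIC libraries are the lowest of the 12 in each panel.

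Complex I, the NADH dehydrogenase, had 9 of 38 tested nuclear genes lower with DBIC (23.7%), where 37.2% of all genes were called and 17.2% were lower. By role, 2 of its 7 nuclear core subunits fell, NDUFV1 and NDUFV2, which belong to the NADH-oxidising arm, and 7 of 30 accessory subunits did. The remaining name, NDUFC2-KCTD14, is a read-through of NDUFC2 and its neighbour and was not called. NDUFC2, an accessory subunit of the membrane arm, was at 115.5, 110 and 106 CPM in Ctrl and 91.5, 88.6 and 89.0 in DBIC, a log2 fold change of -0.30 ± 0.05 (adjusted p 0.00078, edgeR). The groups did not overlap. NDUFB3, another membrane arm accessory subunit, was at 22.8, 21.7 and 20.7 CPM in Ctrl and 18.7, 17.3 and 18.3 in DBIC (log2 fold change -0.26 ± 0.07, adjusted p 0.0086, edgeR). NDUFS4, an accessory subunit that the study knocked down, gave -0.15 with an adjusted p of 0.24 and was not called. NDUFB4, an accessory subunit of the membrane arm, ran the other way, at 21.6, 18.9 and 19.96 CPM in Ctrl, 28.6, 20.9 and 30.1 in DBIC and 21.6, 30.6 and 19.5 in DBIC+Hemin. Replicates 2 of both DBIC groups differed from their fellows, and the log2 fold change with DBIC, 0.40 ± 0.17, was not called with all libraries but was at 0.54 (adjusted p 0.026, edgeR) without DBIC replicate 2 and at 0.40 (adjusted p 0.027) without DBIC+Hemin replicate 2.

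The nuclear part of complex III, the cytochrome bc1 complex, had 5 of 9 genes lower (55.6%, against 17.2% of all genes). UQCRC1, a core protein facing the matrix, was at 295, 279 and 287.5 CPM in Ctrl, 253, 246.5 and 249 in DBIC, 282, 282 and 279 in Hemin, and 291, 285 and 278 in DBIC+Hemin. Its replicates were tight and the DBIC libraries stood apart below the rest, with a log2 fold change against Ctrl of -0.20 ± 0.03 (adjusted p 0.00012, edgeR). UQCR11, a small subunit, fell by 0.24 ± 0.06 on the log2 scale (adjusted p 0.0057, edgeR). UQCRFS1, the Rieske iron-sulfur protein, fell by 0.15 ± 0.04 (adjusted p 0.020, edgeR), a call lost without Ctrl replicate 1 or DBIC replicate 2. UQCRHL, a copy of the hinge protein gene UQCRH, shares near-identical sequence with it, so reads of the pair may be split uncertainly.

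Complex IV, cytochrome c oxidase, had 5 of 14 tested nuclear genes lower (35.7%, against 17.2% of all genes), and 5 of its 19 nuclear names were not tested. Of the 14, 11 were counted as subunit genes. The 5 lower genes included COX7A2L and NDUFA4L2, which are not among those 11. The complex IV subunit COX4I1, which is thought to regulate the enzyme, was at 138, 135 and 137 CPM in Ctrl and 126, 123 and 126 in DBIC (log2 fold change -0.13 ± 0.03, adjusted p 0.0094, edgeR). COX7A2L, which joins complexes III and IV into supercomplexes, was at 34.0, 37.4 and 35.0 CPM in Ctrl and 31.8, 31.5 and 23.1 in DBIC, where replicate 3 lay well below the others (log2 fold change -0.30 ± 0.10, adjusted p 0.036, edgeR). That call was lost in 4 of 20 alternatives, which included leaving out any 1 Ctrl library, and the log2 value ranged from -0.17 to -0.38. NDUFA4L2, a hypoxia-inducible paralog of the complex IV subunit NDUFA4, was low, at 1.59, 2.14 and 0.92 CPM in Ctrl and 1.03, 0.89 and 0.80 in DBIC, and the groups overlapped. Its log2 fold change of -0.77 ± 0.28 had an adjusted p of 0.0498 by edgeR. The call was lost in 13 of 20 alternative analyses, among them the replicate block, and the log2 value ranged from -0.47 to -1.04.

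The isoforms that other tissues use were close to silent. COX4I2, COX6A2, COX7B2 and COX8C had 0 counts in each library, and COX7A1, the heart and muscle form of subunit 7a, had 2 to 19. COX6B2, a testis form, was at 0.099 to 0.49 CPM over the Ctrl and DBIC libraries and was not called. The other members that were not tested, ATP5EP2 and ATP5L2, are copies of ATP synthase genes with at most 4 counts.

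The ATP synthase, whose nuclear genes the table writes with older ATP5 names, had 9 of 15 tested subunit genes lower with DBIC, where 17.2% of all genes were lower. Another 3 tested names begin with ATP5 without being subunit genes, and none of these was called. They are ATP5S, a coupling factor outside the enzyme's structure, ATP5SL, an assembly protein of complex I, and ATP5J2-PTCD1, a read-through of ATP5J2 and its neighbour. In the catalytic head and central stalk 3 of 5 fell, in the c ring 2 of 3, in the peripheral stalk 3 of 4, and among the small membrane subunits 1 of 3. ATP5B, the catalytic beta subunit, was at 1045, 1023 and 1010 CPM in Ctrl, 853, 828 and 890.5 in DBIC, 1029, 1028 and 1012 in Hemin, and 1059, 1041 and 966 in DBIC+Hemin. Each DBIC library was below each of the other 9, and the log2 fold change against Ctrl was -0.26 ± 0.04 (adjusted p 0.00020, edgeR).

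ATP5A1, the alpha subunit that alternates with beta, was at 325, 282 and 287 CPM in Ctrl and 233.5, 222.5 and 255 in DBIC (log2 fold change -0.33 ± 0.07, adjusted p 0.0027, edgeR). The c ring protein, which carries the protons, is made from 3 genes whose mature products are identical. ATP5G1 was at 38.9, 39.9 and 39.7 CPM in Ctrl and 29.8, 31.1 and 30.2 in DBIC, and ATP5G3 at 172, 175 and 172 in Ctrl and 146, 139.5 and 144 in DBIC. Their log2 fold changes of -0.38 ± 0.07 and -0.28 ± 0.04 had adjusted p of 0.0011 and 0.00022 by edgeR, while ATP5G2 gave -0.14 (adjusted p 0.072). ATP5H, the peripheral stalk subunit now named ATP5PD, fell by 0.13 ± 0.04 (adjusted p 0.021, edgeR), a call lost without Ctrl replicate 1 or 2 or DBIC replicate 2 or 3.

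Among the mitochondrial genes the response to DBIC was uneven. MT-ND6, a membrane subunit of complex I, was at 256, 263 and 307 CPM in Ctrl, 125, 160.5 and 125 in DBIC, 257, 299 and 257 in Hemin, and 168, 186 and 172 in DBIC+Hemin. The DBIC and DBIC+Hemin libraries were all below all Ctrl and Hemin libraries, and DBIC replicate 2 was the highest of its group. MT-ND5, its neighbour and another membrane subunit of complex I, was at 1438, 1586 and 1800 CPM in Ctrl, 995, 1172 and 971 in DBIC, 1615, 1643 and 1644 in Hemin, and 1159, 1169 and 1351 in DBIC+Hemin. The same separation of the groups held for MT-ND5.

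MT-ND6 fell by 1.01 ± 0.11 on the log2 scale in DBIC against Ctrl, to 0.50 of the Ctrl level (95% interval of the log2 value -1.26 to -0.75, adjusted p 6.6e-05, edgeR), and MT-ND5 by 0.62 ± 0.10 (adjusted p 0.00063). MT-ND3, also of complex I, fell by 0.31 ± 0.08 (adjusted p 0.012, edgeR). These 3 calls stood in each of the 20 alternative analyses. The remaining calls were smaller and the groups overlapped. MT-CO2, the subunit that takes electrons from cytochrome c, gave -0.26 ± 0.08 (adjusted p 0.031, edgeR), MT-CO3 -0.24 ± 0.08 (adjusted p 0.042) and MT-ND2 -0.18 ± 0.06 (adjusted p 0.044), and these were lost in 5, 10 and 13 of 20 alternatives.

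The other mitochondrial genes were closer to Ctrl. MT-ND4, before MT-ND5 on the map, gave -0.01 ± 0.07, and MT-CYB, after MT-ND6, gave -0.05 ± 0.07, while MT-ND1 gave -0.08 ± 0.06, MT-ND4L -0.10 ± 0.07, MT-CO1 -0.16 ± 0.09, MT-ATP6 -0.10 ± 0.06 and MT-ATP8 -0.11 ± 0.14. None of these 7 was called. The number of mitochondrial calls rested on single libraries. It was 11 without DBIC replicate 2, which had the highest mitochondrial share of its group, and 3 without Ctrl replicate 2, Ctrl replicate 3, DBIC replicate 1 or DBIC replicate 3.

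**Figure D3:**
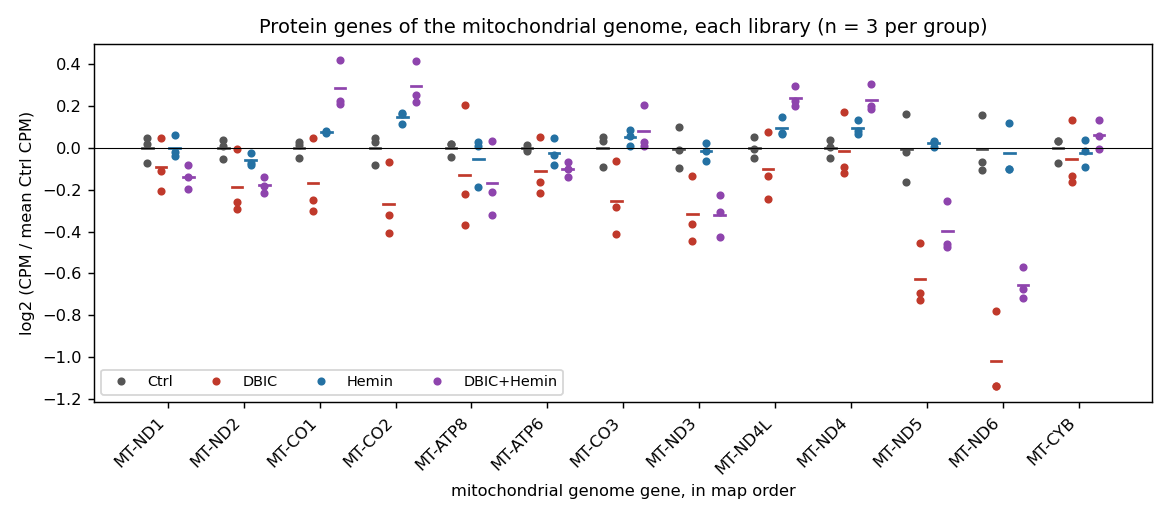
Log2 of CPM over the mean Ctrl CPM (vertical axis) for the 13 mitochondrial genes in map order (horizontal axis). Points are libraries, coloured by group, and bars are group means (n = 3). MT-ND5 and MT-ND6 are lower in both groups that had DBIC, and MT-CO1, MT-CO2, MT-ND4L and MT-ND4 are highest in DBIC+Hemin. The points of DBIC replicates 1 and 3 coincide for MT-ND6.

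MT-ND6 was also followed as a share of the reads of the 13 mitochondrial genes, a measure that does not depend on scaling between libraries. It was 0.892%, 0.862% and 0.998% in Ctrl, 0.494%, 0.530% and 0.516% in DBIC, 0.838%, 0.944% and 0.833% in Hemin, and 0.539%, 0.588% and 0.497% in DBIC+Hemin. Both DBIC groups lay below both groups without DBIC, and DBIC replicate 2 was within its group. The share of MT-ND5 was 5.01%, 5.19% and 5.85% in Ctrl, 3.94%, 3.88% and 4.01% in DBIC, 5.26%, 5.18% and 5.32% in Hemin, and 3.73%, 3.70% and 3.89% in DBIC+Hemin, and both DBIC groups again lay below both groups without DBIC.

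Adding hemin to DBIC raised members of both genomes. In DBIC+Hemin against DBIC, 6 of 13 mitochondrial genes and 26 of 83 nuclear genes (31.3%) were higher and none lower by the edgeR test. Of all genes, 31.9% were called, 13.5% higher and 18.4% lower. The median log2 fold change was 0.23 over the mitochondrial genes, 0.09 over the nuclear ones and -0.01 over all genes. By complex the nuclear calls were 8 of 38 for complex I, 4 of 4 for complex II, 4 of 9 for complex III, 3 of 14 for complex IV and 7 of 18 for the ATP5 names, the 7 being among the 15 subunit genes of the ATP synthase.

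The largest rises among the called members were those of MT-CO2 and MT-CO1 of complex IV. MT-CO2 was at 2143, 2553 and 2018 CPM in DBIC and 3115, 3188 and 3573 in DBIC+Hemin, with 2528, 2772 and 2730 in Ctrl and 2899, 3010 and 2993 in Hemin. Its libraries did not overlap between DBIC+Hemin and any other group. Against Hemin, however, the log2 fold change of DBIC+Hemin was 0.15 (adjusted p 0.35, edgeR) and was not called. MT-CO1, the catalytic subunit with the heme centres, was at 6491, 7990 and 6269 CPM in DBIC and 9029, 8937 and 10330 in DBIC+Hemin. The log2 fold changes were 0.56 ± 0.08 for MT-CO2 (adjusted p 0.00057, edgeR), 0.45 ± 0.09 for MT-CO1 (adjusted p 0.0028) and 0.33 ± 0.08 for MT-CO3 (adjusted p 0.013).

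In complex I, MT-ND4L rose by 0.34 ± 0.07 (adjusted p 0.0032, edgeR), MT-ND6 by 0.36 ± 0.11 (adjusted p 0.033) and MT-ND4 by 0.24 ± 0.07 (adjusted p 0.020). The MT-ND6 call was lost in 6 and the MT-ND4 call in 4 of 20 alternatives, in each case also without DBIC replicate 1, DBIC replicate 3 or DBIC+Hemin replicate 3, and for MT-ND6 without DBIC+Hemin replicate 1 or 2. MT-ND5 gave 0.23 ± 0.10 with an adjusted p of 0.096, and MT-ND3 gave -0.01 ± 0.08. The mitochondrial genes of complex V, MT-ATP6 and MT-ATP8, gave 0.00 and -0.05 and were not called.

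Of the nuclear members the highest called fold change was that of NDUFA10, an accessory subunit of complex I, at 40.7, 45.9 and 36.6 CPM in DBIC and 54.8, 51.5 and 55.0 in DBIC+Hemin (log2 fold change 0.39 ± 0.09, adjusted p 0.0053, edgeR). The groups did not overlap, and Ctrl was at 49.6, 44.5 and 49.4. SDHC followed at 0.28, then ATP5G3 at 0.27 ± 0.04 (adjusted p 0.00035) and NDUFB3 at 0.26 ± 0.07 (adjusted p 0.011). COX4I1 gave 0.10 ± 0.03 with an adjusted p of 0.049 and lost the call in 14 of 20 alternatives.

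Hemin by itself gave no called member. In Hemin against Ctrl, 0 of 96 members passed the edgeR test, 0 passed with DESeq2, and 1 nuclear member had an unadjusted p under 0.05, NDUFA13, with a log2 value of 0.11. Of all genes, 4.06% were called, 1.47% higher and 2.59% lower. The medians were 0.00 for the mitochondrial and 0.01 for the nuclear members. For SDHA the 95% interval of the log2 fold change was -0.09 to 0.07, and for MT-ND6 it was -0.28 to 0.23, so a change as large as that with DBIC lay outside the interval for both genes.

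With hemin present, 2 mitochondrial genes and no nuclear gene passed the test for a fall with DBIC. In DBIC+Hemin against Hemin, MT-ND6 fell by 0.63 ± 0.11 (adjusted p 0.0081, edgeR) and MT-ND5 by 0.41 ± 0.10 (adjusted p 0.030). MT-ND3 was at 440.4, 468 and 456 CPM in Hemin and 342, 393 and 372 in DBIC+Hemin. These groups did not overlap either, and its log2 fold change of -0.30 ± 0.08 had an adjusted p of 0.053 by edgeR. In 8 of 20 alternatives MT-ND3 was called, among them DESeq2 (adjusted p 0.0079) and the fit with the replicate block (adjusted p 0.029). Of all genes, 6.8% were called, 3.71% higher and 3.09% lower. No nuclear member was called by edgeR or DESeq2, and 9 had an unadjusted p under 0.05. The MT-ND5 call was lost in 5 of 20 alternatives and the mitochondrial count was 1 with any 1 of the Hemin libraries left out, and also without DBIC+Hemin replicate 1 or 2. It was 4 lower and 2 higher without DBIC replicate 2. Among nuclear genes COX6B1 was called at -0.18 without DBIC+Hemin replicate 1, and COX6A1 at 0.12 without DBIC+Hemin replicate 2. Both encode complex IV subunits.

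Whether the DBIC effect differed with hemin was tested directly by an interaction term, the effect with hemin minus that without. By edgeR's quasi-likelihood test 11 of 83 nuclear members (13.3%) and 1 of 13 mitochondrial members were called, and in each the value was above 0. Of all genes 16.6% were called, 6.4% above 0 and 10.2% below. All 4 complex II genes were among the 12, with SDHA at 0.22 ± 0.05 (adjusted p 0.0077), SDHB at 0.24 ± 0.05 (adjusted p 0.0064), SDHC at 0.26 ± 0.06 (adjusted p 0.014) and SDHD at 0.32 ± 0.09 (adjusted p 0.041). The SDHD call was lost in 11 of 19 alternatives, among them the fit with the replicate block.

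Among nuclear members, complex V gave 3 interaction calls of 18 tested, complex I 3 of 38, complex III 1 of 9 and complex IV 0 of 14. Of all genes, 6.4% were called above 0. ATP5B was at 0.26 ± 0.05 (adjusted p 0.0055, edgeR), NDUFV2, an iron-sulfur core subunit of complex I, at 0.24 ± 0.06 (adjusted p 0.013) and UQCRC1 at 0.22 ± 0.04 (adjusted p 0.0021). MT-CO2 was the mitochondrial call at 0.41 ± 0.12 (adjusted p 0.038), lost in 10 of 19 alternatives. Without DBIC replicate 2 the interaction had 8 mitochondrial calls, and without DBIC+Hemin replicate 3 it had 20 nuclear calls, against 7 without Ctrl replicate 1. For MT-ND6 the interaction was 0.38 ± 0.16 (95% interval 0.02 to 0.74, adjusted p 0.14) and for MT-ND5 0.21 ± 0.13 (95% interval -0.10 to 0.52, adjusted p 0.36), so a difference between the DBIC effects with and without hemin was not called for these genes. That does not show that the effects were alike.

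**Figure D4:**
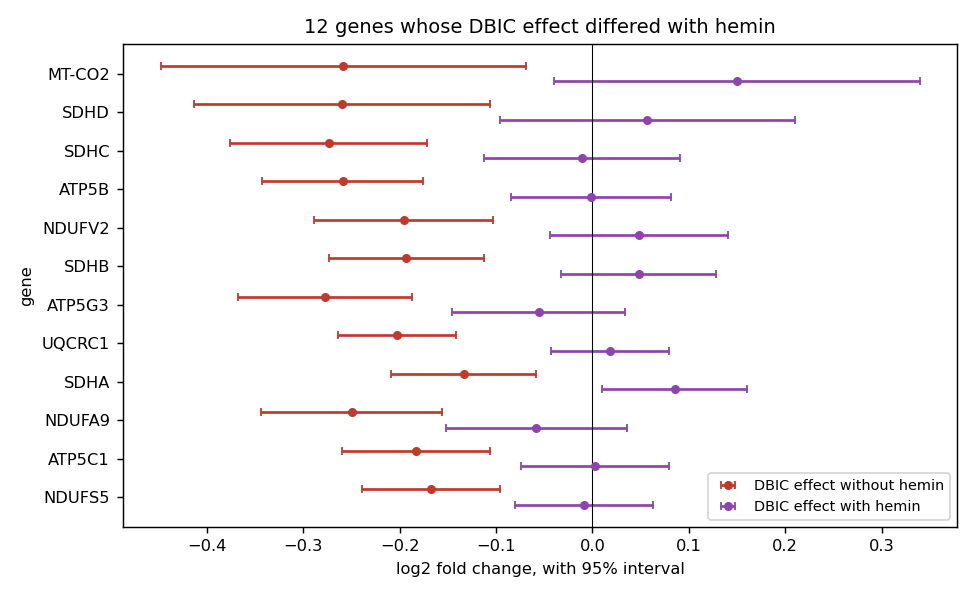
Log2 fold change (horizontal axis) with its 95% interval for the effect of DBIC without hemin (red, DBIC against Ctrl) and with hemin (purple, DBIC+Hemin against Hemin), for the 12 genes called in the interaction test (vertical axis). The red points lie between -0.13 and -0.28, and the purple ones between -0.06 and 0.15.

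The balance between the genomes was described per library. The mitochondrial genes took 2.90%, 3.07% and 3.10% of counts in Ctrl, 2.50%, 2.99% and 2.43% in DBIC, 3.10%, 3.18% and 3.12% in Hemin, and 3.08%, 3.14% and 3.43% in DBIC+Hemin. DBIC overlapped Ctrl through its replicate 2. The nuclear members took 0.867%, 0.840% and 0.842% in Ctrl, 0.760%, 0.743% and 0.772% in DBIC, 0.861%, 0.848% and 0.866% in Hemin, and 0.853%, 0.842% and 0.790% in DBIC+Hemin. The DBIC libraries were the 3 lowest, next to DBIC+Hemin replicate 3.

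The ratio of mitochondrial to nuclear counts was 3.35, 3.66 and 3.69 in Ctrl, 3.29, 4.03 and 3.14 in DBIC, 3.60, 3.75 and 3.60 in Hemin, and 3.62, 3.73 and 4.35 in DBIC+Hemin. All groups overlapped, and the highest values came from DBIC replicate 2 and DBIC+Hemin replicate 3. In bulk RNA, fewer mitochondrial genomes per cell and less RNA per genome cannot be told apart, nor can fewer cells of a kind and less RNA per cell.

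**Figure D5:**
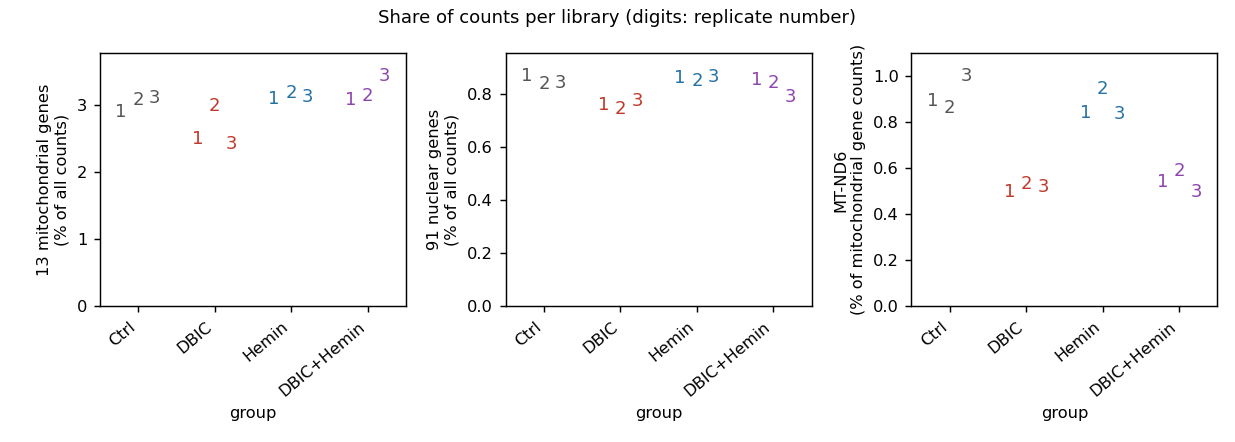
Share of all counts taken by the 13 mitochondrial genes (left) and the 91 nuclear genes (middle), and share of mitochondrial gene counts taken by MT-ND6 (right), all in percent on the vertical axis, by group on the horizontal axis. Each digit is a library and names its replicate. DBIC replicate 2 and DBIC+Hemin replicate 3 lie apart from their groups in the left panel. The DBIC and DBIC+Hemin libraries lie below the others in the right panel.

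Levels between genes were compared per length, in TPM, which divides by gene length before scaling to the library. In Ctrl, mitochondrial genes had mean TPM from 1091 for MT-ND6 to 12390 for MT-CO3, and nuclear subunit genes from 22.7 for NDUFA9 to 1298 for UQCRH. The median TPM of the mitochondrial genes of complex I was 2931 and of its nuclear subunits 146. For complex IV the medians were 10400 and 247, and for complex V 3444 and 209. MT-CO3, MT-CO1 and MT-CO2 thus headed the list, and the mitochondrial level exceeded the nuclear one within each complex that has both.

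Other genes of the pathway came from lists of known function and did not share one direction. Of all genes, 20% were called higher and 17.2% lower with DBIC. With DBIC, the assembly factors of complex I had 2 higher and 4 lower of 16, those of complex II none of 4, those of complex III 1 lower of 6, and those of complex IV 3 higher and 7 lower of 24. COX19 and SCO2, which bring copper to complex IV, were both at 0.94 in log2 fold change (adjusted p 5.15e-06 and 0.016, edgeR), and COX18, which inserts MT-CO2 into the membrane, was at -0.34 (adjusted p 0.0053). Cytochrome c1 (CYC1), the heme subunit of complex III whose name falls outside the rule, was at -0.16 (adjusted p 0.0011).

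Genes for copying or reading the mitochondrial genome had 8 higher and 4 lower of 28 with DBIC. MTERF2, of the termination factor family, was at 0.50 (adjusted p 0.039, edgeR), MTPAP, the mitochondrial poly(A) polymerase, at 0.37 (adjusted p 0.00012), and PRORP, the nuclease that cuts transfer RNAs out of the long transcripts, at -0.53 (adjusted p 0.010). Mitochondrial ribosomal proteins had 3 higher and 18 lower of 78 with DBIC, a median of -0.06, where 20% of all genes were higher and 17.2% lower. They had 27 higher and 1 lower in DBIC+Hemin against DBIC, a median of 0.11, where 13.5% of all genes were higher and 18.4% lower. Of 10 regulators of nuclear subunit genes 4 were higher with DBIC and none lower. These were PPRC1 at 0.70 (adjusted p 6.3e-07), the transcription factor NRF1 at 0.56 (adjusted p 0.00050), and GABPB1 at 0.42 (adjusted p 0.00016), followed by GABPA at 0.17 (adjusted p 0.0058). In DBIC+Hemin against DBIC, 3 of the 10 regulators were lower and none higher. The 28 genes for copying or reading the mitochondrial genome had 2 higher and 8 lower in that contrast. In DBIC+Hemin against Hemin, 2 regulators were higher and none lower, where 3.71% of all genes were higher.

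The promoters of nuclear members were searched for letters that factors of this kind bind. RefSeq promoters of 300 bases, from 250 before to 50 after the start of the gene on GRCh38.p14, were found for 69 of 91 nuclear members. Both strands were searched for the NRF1 palindrome, which is GCGCA followed at once by its reverse complement TGCGC, for CCGGAAGT (the GABPA family) and for AAGATGGCG (YY1). The motifs in the promoters printed here do not overlap each other. NRF1 letters were in 4 of 69 member promoters (5.8%), against 1.36% of all 27305 promoters and 2.13% of those of tested genes. GABPA letters were in 9 (13%, against 4.44% and 8.19%), and YY1 letters in 8 (11.6%, against 1.85% and 3.67%). Among the 25 promoters of members lower with DBIC the counts were 2, 4 and 5 (8%, 16% and 20%), and among the 41 of members tested and not called they were 2, 5 and 3 (4.88%, 12.2% and 7.32%). A match of letters is a description and not a bound site.

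The promoters of SDHD, SDHB, UQCRC1, ATP5C1 and NDUFA9 are shown because these genes fell with DBIC, were called in the interaction test and hold a match, which is in capitals. SDHD (chr11:112086623-112086922, + strand) has the NRF1 letters 110 bases before the start and the GABPA letters, on the opposite strand, 78 before it. SDHB (chr1:17053983-17054282, - strand) and UQCRC1 (chr3:48609597-48609896, - strand) have the YY1 letters 10 and 23 bases after the start, and NDUFA9 (chr12:4648864-4649163, + strand) has them 10 after it. ATP5C1 (chr10:7787927-7788226, + strand) has the NRF1 letters 22 before it.
SDHD: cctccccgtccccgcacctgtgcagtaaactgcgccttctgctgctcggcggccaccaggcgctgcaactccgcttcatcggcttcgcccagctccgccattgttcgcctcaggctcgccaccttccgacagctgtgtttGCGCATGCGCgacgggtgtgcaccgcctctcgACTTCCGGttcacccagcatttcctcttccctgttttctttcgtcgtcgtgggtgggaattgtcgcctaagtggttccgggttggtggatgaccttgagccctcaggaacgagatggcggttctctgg
SDHB: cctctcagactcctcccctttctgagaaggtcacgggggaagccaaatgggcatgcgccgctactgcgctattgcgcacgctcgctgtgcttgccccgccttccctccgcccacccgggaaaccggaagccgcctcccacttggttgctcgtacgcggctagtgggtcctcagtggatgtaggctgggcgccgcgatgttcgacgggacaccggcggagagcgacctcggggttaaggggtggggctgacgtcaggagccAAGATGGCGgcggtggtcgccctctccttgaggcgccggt
UQCRC1: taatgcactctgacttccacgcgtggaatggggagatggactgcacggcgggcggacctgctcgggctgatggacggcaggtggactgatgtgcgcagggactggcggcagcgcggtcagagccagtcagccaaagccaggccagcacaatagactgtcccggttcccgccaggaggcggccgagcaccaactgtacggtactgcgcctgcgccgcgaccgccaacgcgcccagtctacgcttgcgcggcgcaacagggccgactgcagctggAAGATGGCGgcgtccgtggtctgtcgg
ATP5C1: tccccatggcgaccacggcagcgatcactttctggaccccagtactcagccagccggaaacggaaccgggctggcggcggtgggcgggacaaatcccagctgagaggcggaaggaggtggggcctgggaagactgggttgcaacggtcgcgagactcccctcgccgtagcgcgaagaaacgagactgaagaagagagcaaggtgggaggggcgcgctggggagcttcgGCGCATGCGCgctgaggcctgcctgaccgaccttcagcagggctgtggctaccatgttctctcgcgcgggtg
NDUFA9: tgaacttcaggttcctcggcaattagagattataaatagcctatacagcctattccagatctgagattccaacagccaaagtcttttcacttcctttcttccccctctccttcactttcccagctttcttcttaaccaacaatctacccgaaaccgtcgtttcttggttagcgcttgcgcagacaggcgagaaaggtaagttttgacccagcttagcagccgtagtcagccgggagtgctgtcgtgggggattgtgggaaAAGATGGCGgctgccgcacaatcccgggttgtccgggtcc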

How the data were processed

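The authors deposited 1 table of 20263 genes for the 12 libraries. Its counts were deposited as raw reads per gene. The deposited TPM values were corrected by the authors for gene length and library, and the deposited FPKM values for gene length and depth. FPKM was not used for results. The submitters' processing notes name Trim Galore, Subread, featureCounts and hg38. Their order, settings and versions are not given in the sources used here.

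The test was edgeR 4.0.16 (R 4.3.3) on the counts. The filterByExpr filter left 14287 genes. TMM factors, a robust quasi-likelihood fit of all 12 libraries with 8 residual degrees of freedom and Benjamini-Hochberg adjustment over all 14287 genes gave the calls at 0.05, and SE is the size of the log2 value divided by the square root of the F statistic. CPM used TMM library sizes. With totals of 37951275 to 44358912 counts, 3 counts are under 1 CPM. In simulated data for DBIC against Ctrl on 14287 genes, 50.6% of 87 genes changed by 0.5 (log2) and 77.9% of 113 changed by 1 were recovered. In the real comparison 5310 genes were called, far more than were changed in the simulation, so these shares may not hold for it. Smaller changes were not simulated, and the called nuclear members had a median log2 fold change of -0.19 in DBIC against Ctrl. DESeq2 1.42.0 and other scalings, filters, a replicate block and leaving out each library were tried as alternatives. Promoters were taken from RefSeq tables.

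The members and lists were chosen with earlier results of these data known. Genes named are all mitochondrial members, the complex II genes, members the study knocked down, isoforms, up to 2 of the largest falls per complex, up to 4 nuclear members per other comparison and up to 3 genes per list and comparison. GABPA, NDUFA13, NDUFB4, COX6A1, COX6B1, NDUFV1, ATP5G2, UQCRH, the remaining interaction calls were named after their values were seen. All 104 members were found in GENCODE 29, where 20 have newer names.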

Additional observations from a re-analysis of the deposited data

Results flagged for a closer look

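The effect of DBIC differed with and without hemin, by edgeR's interaction test with Benjamini-Hochberg adjustment, in the following genes, where each value is the log2 effect with hemin minus that without. Among members, complex II gave SDHA at 0.22, SDHB at 0.24, SDHC at 0.26 and SDHD at 0.32. Complex I gave NDUFS5 at 0.16, NDUFA9 at 0.19 and NDUFV2 at 0.24. Complex III gave UQCRC1 at 0.22, and complex V gave ATP5C1 at 0.19, ATP5G3 at 0.22 and ATP5B at 0.26. MT-CO2 was the mitochondrial gene at 0.41.

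Among the other genes of the pathway, at most the 3 largest values of each list are given. Of all genes tested, 6.4% were called above 0 and 10.2% below. Above 0 were CYC1 at 0.19 and 6 of 78 mitochondrial ribosomal protein genes, the largest being MRPL37 at 0.22, MRPL40 at 0.20 and MRPL51 at 0.19. Below 0 were the assembly factors FOXRED1 at -0.19, COA7 at -0.21 and COX19 at -0.91, and the regulators PPRC1 at -0.69 and NRF1 at -0.41. Of 28 genes for copying or reading the mitochondrial genome 4 were below 0. The largest in size were MTPAP at -0.48, the DNA polymerase subunit POLG2 at -0.41 and the helicase TWNK at -0.26.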

How the results depend on the processing

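Of 348 values of the main counts, medians and ratios under alternatives, 315 stayed within 1.5 times (counts) or within the spread between libraries (medians and ratios), and no call changed direction. The balance between the genomes, which has no test, had the opposite sign in 12 of 150 alternatives. Mitochondrial calls in DBIC against Ctrl were 3 with the compared groups only. With upper-quartile factors nuclear calls were 42 in DBIC+Hemin against DBIC and 21 in the interaction, and the share of higher genes among all calls became 40%, 59.2% and 55.4% in DBIC against Ctrl, DBIC+Hemin against DBIC and the interaction, against 53.8%, 42.4% and 38.5%. Mitochondrial interaction calls were 2 with DESeq2, 2 with upper-quartile factors and 0 with no filter. The log2 level of mitochondrial relative to nuclear members in DBIC+Hemin against Hemin was 0.09 as a ratio of summed counts and -0.058 as a difference of mean log2 CPM, the opposite direction. The causes were not tested.

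Leaving out 1 library gave 3 to 11 mitochondrial and 23 to 34 nuclear calls in DBIC against Ctrl, 4 to 9 and 19 to 28 in DBIC+Hemin against DBIC, 1 to 6 and 0 to 1 in DBIC+Hemin against Hemin, and 0 to 8 and 7 to 20 in the interaction. The median difference between the genomes (mitochondrial minus nuclear) ranged from -0.16 to 0.029, 0.02 to 0.23, -0.08 to 0.01, and -0.02 to 0.17 in the same order, and -0.05 to 0.05 in Hemin against Ctrl. The log2 ratio of their counts ranged from -0.15 to 0.03, 0.08 to 0.27, 0.01 to 0.14 and 0.05 to 0.24, and -0.01 to 0.06 in Hemin against Ctrl. The end of most mitochondrial ranges came without DBIC replicate 2.

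Libraries of the same replicate number correlated at -0.046 to 0.081 in their deviations, and those of different number and group at -0.070 to 0.076. The numbers were not taken as pairs in the main fit. Since 8 of 12 libraries correlated best with their own number, pairing was not settled. With the replicate block, nuclear calls were 28 in DBIC against Ctrl, 25 in DBIC+Hemin against DBIC and 8 in the interaction, and mitochondrial calls 6, 6 and 1, with 3 in DBIC+Hemin against Hemin. Depth limits the members under about 1 CPM.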
